A study of Mus musculus with 6 samples.

Results

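The genes described are 10 members of the EGF receptor system: the receptors Egfr, Erbb2 and Erbb3, the ligands Tgfa, Hbegf, Areg, Ereg, Btc and Epgn, and the protease Adam17. They were picked by symbol from a table of 23951 genes, and all 10 were present and passed the filter on low values. Whole skin of 6 littermate mice on a C57Bl/6 background, 6 to 7 months old by the labels, was profiled by RNA sequencing. The 3 controls were JunB +/+ and the 3 mutants, labelled JunB dep, are called JunBΔep mice or mutants. In them a floxed JunB allele is removed by Cre under the K5 promoter, which is active in basal keratinocytes and other K5-expressing epithelium. The other cells of the skin keep the gene, and mutant skin was sampled from lesions. Replicates are named 0, 1 and 2 as in the labels.

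ErbB receptors are receptor tyrosine kinases that act as pairs. Egfr binds most of the ligands, Erbb2 has no known ligand and serves as a partner, and Erbb3 binds neuregulins and has a weak kinase of its own. The ligands are made as membrane-anchored precursors and are released by proteases such as ADAM17. In skin, the pathway is known for its control of keratinocyte proliferation and differentiation, hair growth and the response to wounds.

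The authors deposited FPKM values, that is, fragments scaled to transcript length in kilobases and to 1000000 mapped fragments. They summed to 481078 to 630363 per mouse, and the number of reads behind them is unknown. Fold changes are JunBΔep minus control, taken on log2(FPKM + 0.5), so changes of low genes are understated. They come from limma over 17021 genes, Benjamini-Hochberg adjusted, and a gene is called at an adjusted p below 0.05. Junb measured 59.3, 72.4 and 56.9 FPKM in controls, 42.8 and 28.0 FPKM in mutant replicates 1 and 2, and, above every control, reached 129.6 FPKM in the library labelled JunBΔep replicate 0. That library also stood apart in its markers. The 5 genes of mucosal epithelium summed to 3798 FPKM there and to at most 1.41 FPKM elsewhere, 5 adipocyte genes to 59.0 FPKM against 1210 to 8949 FPKM, and 5 neutrophil genes to 24940 FPKM against 14.1 to 1468 FPKM. Of the neutrophil sum, S100a8 made up 24460 FPKM, while its partner S100a9 was listed at 0. Krt14, Krt6a, Krt6b, Krt16 and Krt85 were also listed at 0 in that library and not in the other 5. The 7 basal and 4 suprabasal keratinocyte genes measured summed to 3833 FPKM or more and 4325 FPKM or more in every library, but in that library Krt15, Col17a1 and Lor were, like Krt14, below their levels in the other 5, and Krt5, Itga6, Itgb4, Krt1 and Ivl above. Skeletal muscle markers were lower in all 3 mutants, with sums of 15640 to 20390 FPKM in controls against 1505 to 3742 FPKM in the mutants. The sums of the other 17 marker lists overlapped between the genotypes, and none of their genes was called. Control replicate 0 held 1529 FPKM of 4 liver genes, against at most 27.9 FPKM elsewhere. In bulk skin, fewer cells of a type and less RNA per cell cannot be told apart. "JunBΔep" and "mutant" below therefore mean libraries so labelled, and JunBΔep replicate 0 is counted among them by its label. Its Junb level was above every control, but other cells of the skin keep the gene, so whole-skin Junb cannot decide the label. Its skeletal muscle sum, 1505 FPKM, lay with the 1533 and 3742 FPKM of the other mutants. The fold changes of the members are given with and without it.

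The ligands Epgn, Areg and Hbegf were higher in every library labelled JunBΔep than in every control. Epgn (epigen) showed this most evenly, at close to 4 times the control mean in JunBΔep replicates 1 and 2. Btc (betacellulin) was the most abundant ligand in each control mouse and Epgn was in each mutant. Btc, Ereg, Tgfa, Egfr, Erbb3 and Adam17 overlapped between the genotypes. With all 6 mice no member passed the test. Over all 17021 genes, 1.38% passed it, 0.00% as higher in JunBΔep skin and 1.38% as lower. At an unadjusted p below 0.05, 1 member was higher (Epgn) and 0 were lower, where 1.43% and 6.13% of all genes were. Of the 10 members, 4 were higher without overlap between the groups and 0 lower, against 5.62% and 9.16% of all genes. The median log2 fold change was 0.37 over the 10 members and 0.03 over all genes tested, and without the library labelled JunBΔep replicate 0 it was 0.17 and 0.03.

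**Figure D1:**
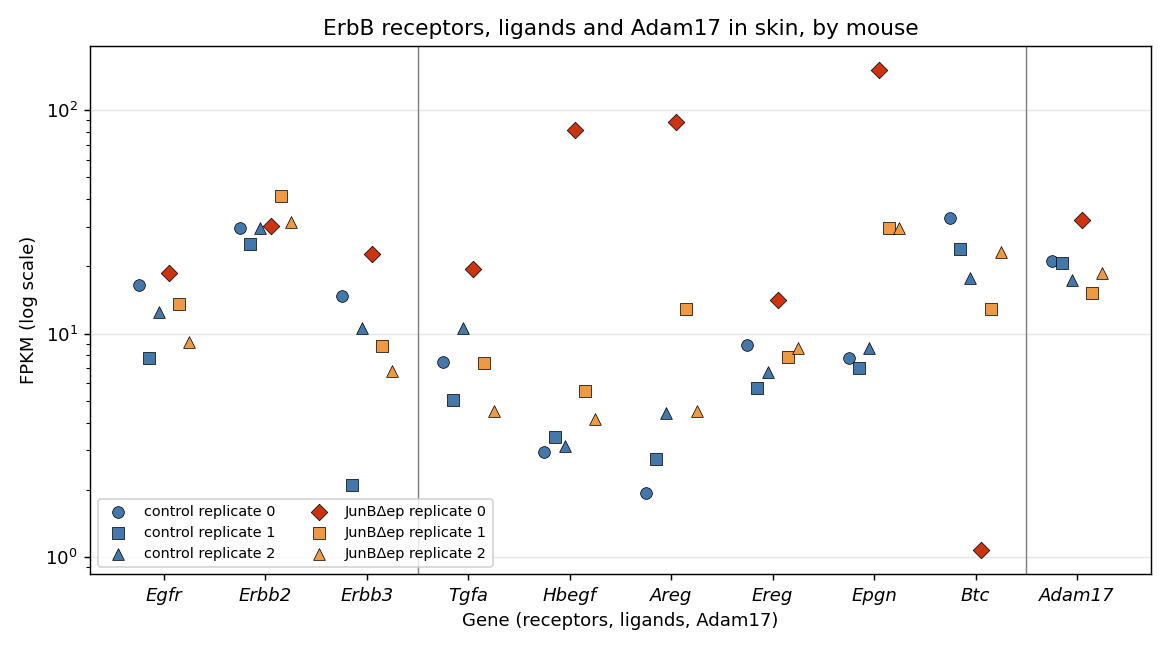
FPKM of the 10 genes (log axis) in each mouse, with 1 point per mouse, control mice in blue and JunBΔep mice in red (replicate 0) or orange (replicates 1 and 2). Epgn measured 7.03 to 8.60 FPKM in controls against 29.7 FPKM or more in all 3 JunBΔep mice, while the red points of Hbegf, Areg and Btc lie far from the other 5.

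Epgn, a ligand of Egfr, measured 7.74, 7.03 and 8.60 FPKM in control replicates 0, 1 and 2. It measured 151, 29.7 and 29.7 FPKM in the libraries labelled JunBΔep 0, 1 and 2. The groups did not overlap, and the lowest mutant lay far above the highest control. Its values were 19.4, 3.81 and 3.81 times the control mean. Its log2 fold change was 2.65 (SE 0.65, 95% interval 1.07 to 4.22, limma adjusted p = 0.211). The library labelled JunBΔep replicate 0 enlarged the change but did not set its direction. Without that library the log2 fold change was 1.87 (SE 0.15, limma adjusted p = 0.041), and Epgn was then 1 of 10 genes called higher among 16912 tested, 0.0591% of them. The sample titles fall into 2 number series, which the labels do not call a batch. Within the one with control replicate 2 and mutant replicates 1 and 2, Epgn was 8.60 FPKM against 29.7 and 29.7 FPKM, and within the other it was 7.74 and 7.03 FPKM against 151 FPKM. An exact two-sided permutation test of 3 mice against 3 cannot go below p = 0.1, the value it gave for Epgn.

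Markers of other cell types were set beside the Epgn values. In JunBΔep replicates 1 and 2 the mucosal genes summed to 0.394 and 0.547 FPKM, against 0.503 to 1.41 FPKM in controls, and Epgn was 3.81 times the control mean in both. The 7 hair follicle genes summed to 6286 FPKM in JunBΔep replicate 1 and to 94.5 FPKM in replicate 2, at 29.7 FPKM of Epgn in each. Control replicate 2, with 3911 FPKM of hair follicle genes, had 8.60 FPKM of Epgn. Other libraries went with Epgn. Control replicates 0 and 1, at 1.94 and 2.55 FPKM of hair follicle genes, lay below every mutant. JunBΔep replicate 0, with the highest Epgn, had 323 FPKM of them. The 7 basal keratinocyte genes summed to 3833 to 6574 FPKM in controls against 3921 to 4360 FPKM in the mutants. The sum of JunBΔep replicate 0, 4108 FPKM, counts Krt14 as 0, where every other library had 837 to 1304 FPKM of it. Measured against the basal markers of the same library, leaving out Krt14, the log2 fold change of Epgn was 2.89 (limma adjusted p = 0.195). On that scale the median of all genes moved to 0.27. The basal markers did not move together. Before scaling, the log2 fold changes of Krt15 and Col17a1 were -1.82 and -0.74. Those of Krt5, Trp63, Itga6 and Itgb4 lay between 0.06 and 0.45. The scale is therefore no clean correction for basal cell content. Muscle markers moved with the genotype in all 3 mice. The part of mucosal, hair follicle, basal or muscle cells in the Epgn result was not tested.

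Areg (amphiregulin), a ligand of Egfr, measured 1.94, 2.75 and 4.43 FPKM in controls. It measured 88.3, 12.8 and 4.50 FPKM in the libraries labelled JunBΔep 0, 1 and 2. The groups did not overlap, but replicate 2 exceeded the highest control by little. On the log2 scale the fold change was 2.41 (SE 1.03, 95% interval -0.09 to 4.92, limma adjusted p = 0.677), and 1.27 without the library labelled JunBΔep replicate 0 (adjusted p = 0.661). Hbegf, which binds both Egfr and Erbb4 and is known for its part in wound closure, measured 2.97, 3.45 and 3.15 FPKM in controls. In the libraries labelled JunBΔep 0, 1 and 2 it measured 81.4, 5.52 and 4.16 FPKM. All 3 mutants were above all controls, and the control values lay close together. Its log2 fold change was 1.84 (SE 1.08, 95% interval -0.80 to 4.48, limma adjusted p = 0.722). Without the library labelled JunBΔep replicate 0 it was 0.53, or 1.73 and 1.31 times the control mean in the remaining mutants (adjusted p = 0.626).

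Ereg (epiregulin) measured 8.89, 5.74 and 6.73 FPKM in controls against 14.2, 7.87 and 8.65 FPKM in the mutants. The mutant values overlapped those of control replicate 0, and the log2 fold change was 0.47 (95% interval -0.24 to 1.18, limma adjusted p = 0.722), or 0.22 without the library labelled JunBΔep replicate 0. Tgfa, an Egfr ligand long known in keratinocyte growth, measured 7.46, 5.02 and 10.6 FPKM in controls. It measured 19.4, 7.36 and 4.52 FPKM in the mutants. Only the library labelled JunBΔep replicate 0 exceeded the controls, and JunBΔep replicate 2 lay below them all. The log2 fold change of Tgfa was 0.23 with all mice and -0.33 without that library, with 95% intervals of -1.11 to 1.57 and -1.29 to 0.63.

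Btc was the one member with a negative fold change. It measured 32.8, 23.9 and 17.7 FPKM in controls against 1.07, 12.9 and 23.1 FPKM in the libraries labelled JunBΔep 0, 1 and 2. The libraries labelled JunBΔep 0 and 1 lay below every control, and replicate 2 lay among them. Its log2 fold change was -1.63 (SE 0.99, 95% interval -4.06 to 0.79, limma adjusted p = 0.722), and -0.47 without the library labelled JunBΔep replicate 0 (adjusted p = 0.797). In that library Krt15, a keratin of basal cells and the hair follicle bulge, measured 80.7 FPKM against 947 to 2388 FPKM in the other 5. The other basal genes went both ways there. Col17a1 was also below the other 5, and Krt5, Itga6 and Itgb4 were above them. The adipocyte genes were lowest in that library. Whether these bear on the Btc value was not tested.

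**Figure D2:**
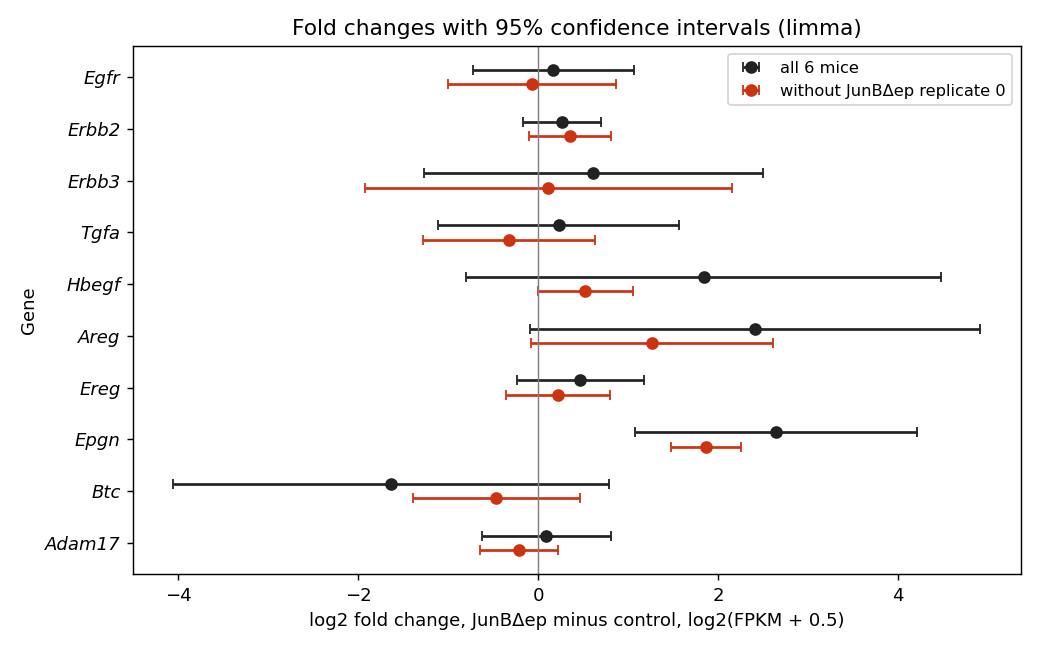
log2 fold change of each member with its 95% confidence interval from limma, with all 6 mice in black and without JunBΔep replicate 0 in red. Of the 10 genes, Epgn was the only one whose interval stayed above 0 in both fits, at 1.07 to 4.22 and 1.48 to 2.25.

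The ligands were then compared with each other as shares of their summed FPKM, a level per transcript length. The 6 ligands summed to 61.8, 47.9 and 51.2 FPKM in controls against 355.7, 76.1 and 74.6 FPKM in the libraries labelled JunBΔep 0, 1 and 2, so that all mutants were above all controls. Without Epgn the sums of the other 5 were 54.1, 40.9 and 42.6 FPKM in controls against 204.3, 46.5 and 44.9 FPKM, and the groups overlapped. Btc made up 53.1%, 49.9% and 34.6% of the sum in controls and 0.302%, 16.9% and 31.0% in the mutants. Epgn made up 12.5%, 14.7% and 16.8% in controls and 42.6%, 39.0% and 39.8% in the mutants. The Epgn share thus differed little among the 3 mutants, although the level of Epgn in the library labelled JunBΔep replicate 0 was far above that in the other mutants. Epgn measured 0.236 to 0.486 times the level of Btc in controls, and 141, 2.30 and 1.28 times that level in the libraries labelled JunBΔep 0, 1 and 2. The shares of Areg and Hbegf peaked in the library labelled JunBΔep replicate 0, at 24.8% and 22.9%. In JunBΔep replicate 1 they were 16.9% and 7.26%, against at most 8.65% and 7.20% in controls, and in JunBΔep replicate 2, at 6.04% and 5.58%, they lay within the control range. These shares are a description of the 6 mice and were not tested.

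**Figure D3:**
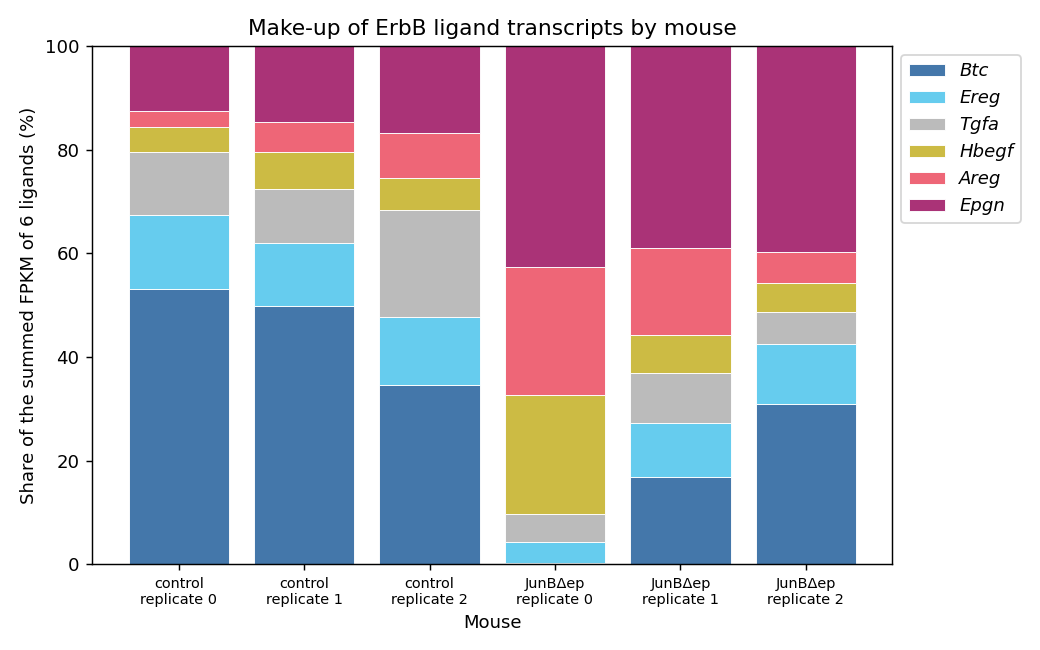
Share of each of the 6 ligands in their summed FPKM, in percent, with 1 bar per mouse. Btc (dark blue) was the largest share in each control, at 34.6% to 53.1%, and Epgn (purple) in each JunBΔep mouse, at 39.0% to 42.6%.

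Epgn, Ereg, Areg and Btc are neighbours, a feature that did not enter the choice of members. On mm9 they lie on chromosome 5 within 375.4 kb, Epgn from 91456490 to 91464241, Ereg from 91503643 to 91522675 and Areg from 91568641 to 91577458 on the plus strand, and Btc from 91786287 to 91831939 on the minus strand. The gaps are 39.4 kb from Epgn to Ereg, 46.0 kb from Ereg to Areg and 208.8 kb from Areg to Btc. Ereg lies between the 2 genes whose groups did not overlap, and its own groups overlapped. Within 200 kb on either side, the other protein-coding genes in the annotation are Cxcl1, Cxcl2, Mthfd2l and Parm1. Cxcl1 and Cxcl2 encode chemokines, and Mthfd2l an enzyme of mitochondrial folate metabolism. Cxcl1 measured 221 FPKM in the library labelled JunBΔep replicate 0 and 0.722 to 3.69 FPKM in the other 5. Cxcl2 measured 0.149, 0.0890 and 0.0781 FPKM in controls against 243.9, 0.279 and 0.926 FPKM in the mutants, without overlap, with a log2 fold change of 3.42 (limma adjusted p = 0.722) and of 0.80 once the library labelled JunBΔep replicate 0 was left out (adjusted p = 0.568). Parm1 measured 1.80, 0.924 and 1.83 FPKM in controls against 5.35, 2.55 and 10.5 FPKM in the mutants (log2 fold change 1.56 with and without that library, limma adjusted p = 0.447 and 0.614). Mthfd2l, which ends just before Epgn begins, measured 1.90 to 2.82 FPKM in controls against 2.87 to 3.21 FPKM in the mutants, with a log2 fold change of 0.30 and no overlap.

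**Figure D4:**
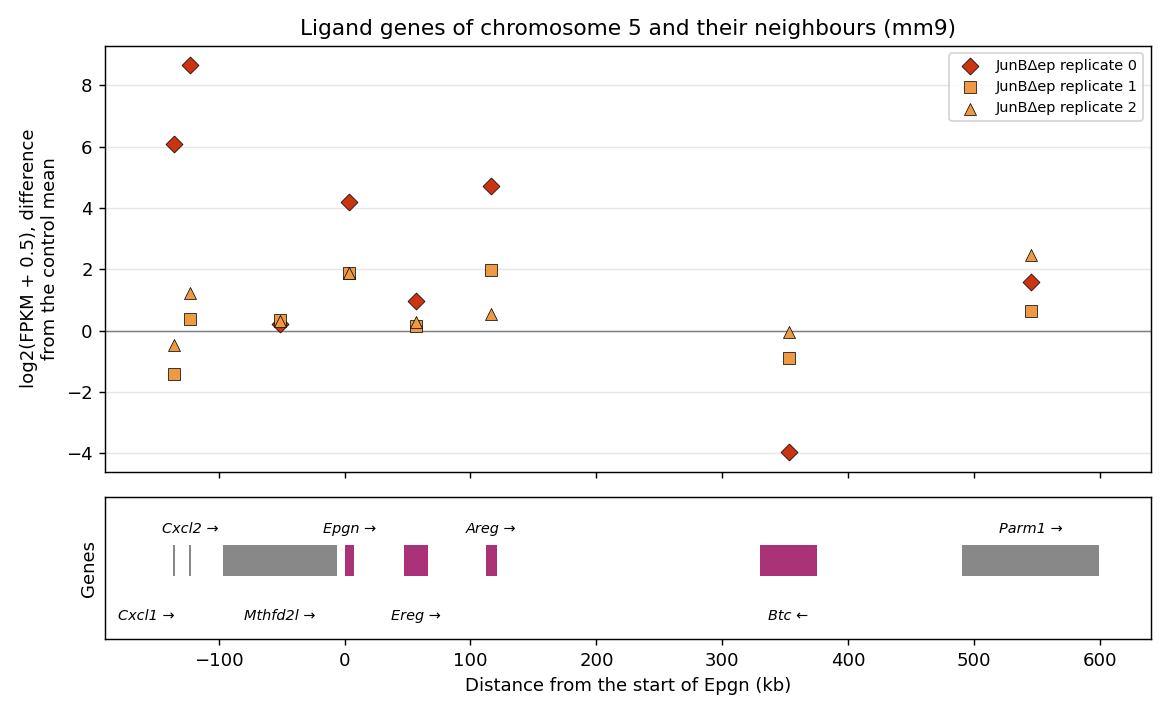
Upper panel, difference of each JunBΔep mouse from the control mean on the log2(FPKM + 0.5) scale for each tested gene around the chromosome 5 ligand genes. Lower panel, the same genes drawn to scale by distance in kb from the start of Epgn, ligands in purple, with arrows for the strand. Epgn and Areg lie above 0 by 1.87 to 4.20 and 0.56 to 4.71, as do Mthfd2l, Cxcl2 and Parm1 by other amounts. Btc lies below 0 by very little in replicate 2, and Ereg, between Epgn and Areg, lies above 0 by 0.157 to 0.967.

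JunB is a subunit of AP-1, a transcription factor that binds TGACTCA and TGAGTCA, and in some pairings TGACGTCA. The promoters of the 2 chromosome 5 ligands that were higher without overlap, Epgn and Areg, and of Btc, the member with a negative fold change, are therefore shown. Each is the RefSeq sequence on GRCm38.p6 from 250 bases before to 50 bases after the start of the gene, on the strand of the gene, with any match to these motifs or to TATAAA in capitals. They are Epgn at chr5:91027267-91027566 (plus strand), Areg at chr5:91139349-91139648 (plus strand) and Btc at chr5:91402945-91403244 (minus strand). The RefSeq set used held a promoter for 7 of the 10 members and none for Ereg, Hbegf and Erbb3. The promoters of Egfr, Erbb2, Tgfa and Adam17 were searched but are not shown.

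Epgn: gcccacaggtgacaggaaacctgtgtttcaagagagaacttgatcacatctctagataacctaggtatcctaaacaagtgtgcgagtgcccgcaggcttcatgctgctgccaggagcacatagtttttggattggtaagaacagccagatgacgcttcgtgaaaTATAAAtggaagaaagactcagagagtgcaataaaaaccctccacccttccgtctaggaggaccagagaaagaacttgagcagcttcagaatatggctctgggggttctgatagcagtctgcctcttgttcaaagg
Areg: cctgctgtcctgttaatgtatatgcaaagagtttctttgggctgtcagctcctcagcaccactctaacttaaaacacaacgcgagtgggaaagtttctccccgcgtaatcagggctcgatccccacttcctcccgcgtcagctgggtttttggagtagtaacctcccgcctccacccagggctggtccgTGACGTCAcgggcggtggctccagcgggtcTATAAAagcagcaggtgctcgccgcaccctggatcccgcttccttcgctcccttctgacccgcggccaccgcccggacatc
Btc: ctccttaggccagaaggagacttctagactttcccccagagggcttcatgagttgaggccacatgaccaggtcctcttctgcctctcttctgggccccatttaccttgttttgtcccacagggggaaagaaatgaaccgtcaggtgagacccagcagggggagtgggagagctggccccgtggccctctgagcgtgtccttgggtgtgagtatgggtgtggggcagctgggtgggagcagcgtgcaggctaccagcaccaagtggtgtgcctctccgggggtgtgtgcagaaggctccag

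TGACTCA or TGAGTCA, searched on both strands, was in 0 of the 7 member promoters and in 5.20% of 32851 mouse promoters of the same length. TGACGTCA was in 1 of the 7, that of Areg, with its first base at position -61, and in 1.79% of all promoters. TATAAA, searched on the strand of the gene, was in the promoters of Areg at -31 and Epgn at -86 and in 8.32% of all promoters. These motifs do not overlap each other in the sequences shown. A match is a run of letters and not a measured site, and sequence outside this window was not searched.

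Among the receptors, Erbb2 was the most abundant in every mouse. It measured 29.8, 25.2 and 29.6 FPKM in controls against 30.2, 41.2 and 31.5 FPKM in the mutants. The groups did not overlap, but the lowest mutant exceeded the highest control by little. Its log2 fold change was 0.27 (95% interval -0.17 to 0.70, limma adjusted p = 0.722), and it was 0.35 without the library labelled JunBΔep replicate 0. Egfr measured 16.5, 7.75 and 12.5 FPKM in controls against 18.7, 13.6 and 9.14 FPKM in the mutants. The genotypes overlapped, and the log2 fold change of 0.17 (95% interval -0.72 to 1.06) turned to -0.07 without that library and to -0.12 without control replicate 1. Egfr is on chromosome 11 from 16652206 to 16818161, and Erbb2 on the same chromosome from 98273784 to 98299030.

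Erbb3 varied most among the receptors within a genotype. It measured 14.8, 2.11 and 10.5 FPKM in controls against 22.8, 8.83 and 6.77 FPKM in the mutants. Control replicate 1 was the lowest and the library labelled JunBΔep replicate 0 the highest. Its log2 fold change was 0.62 (95% interval -1.27 to 2.50), and it was 0.12 without the library labelled JunBΔep replicate 0 and -0.16 without control replicate 1. The same control mouse was the lowest of the 6 for Egfr and Erbb2 too. The 3 receptors summed to 61.1, 35.1 and 52.7 FPKM in controls against 71.6, 63.6 and 47.4 FPKM in the mutants, with overlap. In JunBΔep replicate 2, where Epgn was 3.81 times the control mean, Egfr measured 0.745 and Erbb3 0.741 times their control means.

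Adam17 encodes the main protease that releases Tgfa, Areg, Hbegf, Ereg and Epgn from the cell surface. It measured 21.1, 20.7 and 17.4 FPKM in controls against 32.2, 15.3 and 18.7 FPKM in the libraries labelled JunBΔep 0, 1 and 2. The library labelled JunBΔep replicate 0 was the highest of the 6 and JunBΔep replicate 1 the lowest. The log2 fold change was 0.09 (95% interval -0.62 to 0.81), and -0.21 without the library labelled JunBΔep replicate 0 (95% interval -0.65 to 0.23). That library held the highest value of 8 of the 10 members, where 29.7% of all genes had their highest value. The exceptions were Erbb2 and Btc, which had its lowest value there, as 32.0% of all genes had.

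Other genes of the pathway were taken from 5 lists with 53 genes, of which 51 were tested. None of the 51 was called by limma, and at an unadjusted p below 0.05 there were 1 higher (Dusp6) and 1 lower (Egf). Over all genes, 1.43% were higher and 6.13% lower at that level. In 5 of the 51 all mutants were above all controls and in 1 below, where 5.62% and 9.16% of all genes were. Without the library labelled JunBΔep replicate 0, 0 of the 51 were called, and at an unadjusted p below 0.05 there were 1 higher (Myc) and 1 lower (Egf). The median log2 fold change was 0.24, and 0.12 without the library labelled JunBΔep replicate 0, where all genes had 0.03 in both fits. Nrg3 and Erbb4 were below the filter. Erbb4, the fourth receptor, measured 0.0170 to 0.0270 FPKM in controls and was listed at 0 in the 3 mutants.

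Egf, the founding ligand of the family, went the other way from Epgn. It measured 3.56, 2.80 and 7.66 FPKM in controls against 0.564, 0.801 and 0.929 FPKM in the mutants. All 3 mutants were below all controls. The log2 fold change was -1.93 (SE 0.38, limma adjusted p = 0.108), and -1.81 without the library labelled JunBΔep replicate 0 (adjusted p = 0.256). All 8 skeletal muscle markers were likewise lower without overlap, 5 of them called. Among them, only Myh1 was called without the library labelled JunBΔep replicate 0 (limma adjusted p = 0.041). The part of muscle in the Egf values was not tested. Nrg1, a neuregulin that binds Erbb3 and Erbb4, measured 0.0985, 0.0573 and 0.694 FPKM in controls against 12.4, 0.527 and 0.204 FPKM in the mutants, high in 1 mouse only. Nrg4 measured 6.14 to 7.61 FPKM in controls against 2.82, 4.14 and 15.3 FPKM in the mutants, on both sides of the controls. Nrg2 measured 0.843 to 2.80 FPKM in controls against 0.908 to 3.08 FPKM in the mutants.

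Of the shedding machinery, 2 of 5 genes were higher without overlap, where 5.62% of all genes were. Rhbdf2, which encodes the iRhom2 protein that carries ADAM17 to the cell surface, measured 24.9, 25.3 and 24.5 FPKM in controls against 33.9, 35.1 and 27.3 FPKM in the mutants. The controls lay close together, and the log2 fold change was 0.35 (SE 0.15, limma adjusted p = 0.682), and 0.31 without the library labelled JunBΔep replicate 0. Adam10, the protease known to release Btc and Egf, measured 13.7, 12.2 and 14.1 FPKM in controls against 22.5, 16.7 and 14.2 FPKM in the mutants. Its lowest mutant value was almost that of the highest control, and its log2 fold change was 0.38, or 0.20 without that library. Rhbdf1, a relative of Rhbdf2, overlapped, with a log2 fold change of 0.03. Furin, a convertase that matures ADAM proteases, measured 22.4 to 42.4 FPKM in controls against 30.3 to 64.9 FPKM in the mutants. Timp3, an inhibitor of ADAM17, measured 62.9 to 69.2 FPKM in controls against 11.7, 55.8 and 67.8 FPKM in the libraries labelled JunBΔep 0, 1 and 2.

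The 22 adaptors and kinases had log2 fold changes between -0.35 and 0.51, 14 of them positive, with a median of 0.12. Their median was 0.009 without the library labelled JunBΔep replicate 0. Akt1 was the 1 gene without overlap, at 49.7 to 55.1 FPKM in controls against 57.6 to 86.5 FPKM in the mutants. The largest difference was that of Stat3, at 37.2 to 41.7 FPKM in controls against 114, 31.5 and 50.4 FPKM in the mutants, a log2 fold change of 0.51, or 0.009 without the library labelled JunBΔep replicate 0. Of 13 feedback inhibitors, Dusp6, an ERK phosphatase that is itself induced by ERK signalling, differed most. It measured 9.55, 11.7 and 19.95 FPKM in controls against 50.3, 38.6 and 18.7 FPKM in the mutants, a log2 fold change of 1.31 (SE 0.44, limma adjusted p = 0.483). The libraries labelled JunBΔep 0 and 1 were above every control, and replicate 2 was within them. Without the first of these the log2 fold change was 1.01. Errfi1, which inhibits the Egfr kinase, measured 26.6 to 44.95 FPKM in controls against 34.6 to 60.5 FPKM in the mutants, with overlap.

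All 7 transcriptional targets on the list had positive fold changes, as had 53.4% of all genes, with a median of 0.72, and 6 of the 7 had their highest value in the library labelled JunBΔep replicate 0. Without that library the median was 0.11 and 5 of the 7 were positive, Egr1 having turned from 0.08 to -0.15 and Phlda1 from 0.51 to -0.11. Fosl1, another AP-1 subunit, had the largest, and measured 0.141 to 0.409 FPKM in controls against 15.6, 0.414 and 0.224 FPKM in the mutants. Ier3 and Myc did not overlap between the groups. Ier3 measured 20.7 to 32.3 FPKM in controls against 241, 37.0 and 33.6 FPKM in the mutants (log2 fold change 1.40, or 0.48 without that library, limma adjusted p = 0.722 and 0.710). Myc measured 19.2 to 23.0 FPKM in controls against 54.2, 27.5 and 27.2 FPKM in the mutants (log2 fold change 0.72, or 0.40 without that library, limma adjusted p = 0.666 and 0.552). Leaving that library out took the log2 fold change of Nrg1 from 1.52 to 0.21, of Fosl1 from 1.55 to 0.11, of Plaur from 1.40 to 0.02, of Timp3 from -0.86 to -0.08 and of Akt1 from 0.38 to 0.21. Of the 51 pathway genes 12 changed sign, among them Nrg2 and Nrg4, from -0.09 and -0.24 to 0.15 and 0.22.

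**Figure D5:**
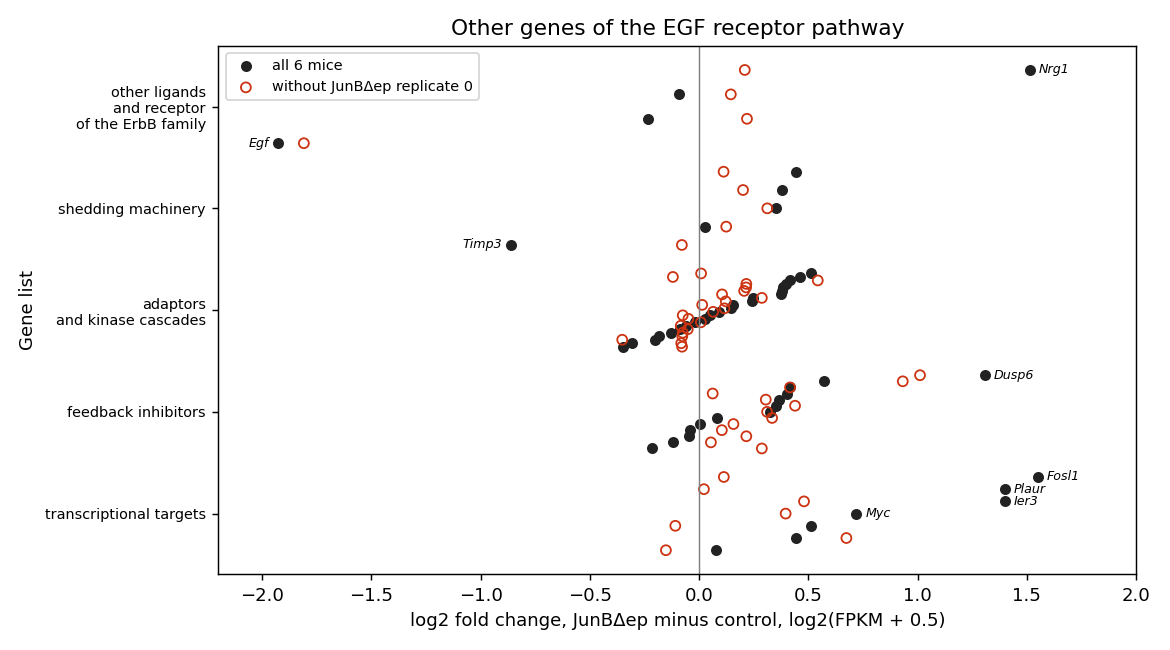
log2 fold change of the 51 tested genes of 5 pathway lists, with 1 filled point per gene for all 6 mice and an open red point at the same height for the fit without JunBΔep replicate 0. Genes beyond 0.7 in either direction are named. The changes of Nrg1, Fosl1, Plaur, Ier3 and Timp3 moved toward 0 without that library, while that of Egf was -1.93 with it and -1.81 without it.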

How the data were processed

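Whole-skin RNA of 3 control and 3 JunBΔep mice was sequenced from poly(A) libraries. The authors aligned reads to mm9 with TopHat 2.0.10, Bowtie 1.0.0 and SAMtools 0.1.19 in the nextpresso pipeline and deposited FPKM values per gene and mouse. Cufflinks is named in the submitters' processing notes without a role, and no source used here states whether libraries were rescaled further. Read counts, which the authors tested with DESeq2, were not used here.

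Values were transformed to log2(FPKM + 0.5), and those genes whose mean over the 6 mice reached 0.1 FPKM were tested in limma 3.58.1 under R 4.3.3, using an intensity trend, genotype as the only term, two-sided tests and Benjamini-Hochberg adjustment over all genes. Exact permutation tests over 20 assignments used scipy 1.17.1. The procedure was tested on simulated data. The 10 members, the 5 pathway lists and the 18 marker lists were chosen with earlier results of these data known. Named genes are the members, Junb, the other ErbB ligands and receptor, the shedding genes, and pathway genes that were called, did not overlap or changed most in their list. Errfi1, Plaur, Egr1, Phlda1, the marker genes and the neighbours on chromosome 5 were named after their values were seen. Positions follow GENCODE vM1 on mm9, and promoters come from RefSeq on GRCm38.p6. The labels name 3 mice per genotype, so p-values measure the spread between mice. No column was left unused.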

Additional observations from a re-analysis of the deposited data

How the results depend on the processing

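With all 6 mice, 0 members and 0 of the 51 pathway genes were called by limma, and the same held under the 3 other scalings, both other pseudocounts, both other filters, limma without the trend, robust limma and an adjusted p of 0.1. At an unadjusted p below 0.05 there were 1 member, 2 pathway genes and 1287 genes in all. The count over all genes, 235, ranged from 0 to 254 when 1 mouse was left out, and the count of members from 0 to 1, the 1 being Epgn without JunBΔep replicate 0. It was 0 without control replicate 0, 1 or 2 or JunBΔep replicate 1, and 135 without JunBΔep replicate 0. With a replicate block on the shared numbers 0, 1 and 2 it was 0, and no member was called. The deviations of same-numbered mice from their group means correlated at 0.120, -0.228 and -0.426 across genes. These values showed no common pairing by number, though such correlations cannot exclude one. A block on the number series of the sample titles also gave 0 genes in all. Of 180 member values under alternatives, 173 kept their direction and side of the threshold, 1 became called and 6 reversed, all 6 on leaving out 1 mouse. Both other filters, limma without the trend, robust limma and the replicate block leave each log2 fold change unchanged. Under those settings a value could change its side of the threshold but not its direction. Leaving out 1 mouse gave -0.12 to 0.43 for Egfr, -0.16 to 1.12 for Erbb3, -0.33 to 0.67 for Tgfa, -0.21 to 0.32 for Adam17, 1.87 to 3.03 for Epgn, 1.27 to 3.34 for Areg, 0.53 to 2.59 for Hbegf and -2.42 to -0.47 for Btc. The adjusted p of Epgn lay between 0.041 and 0.633 over its alternatives. The cause of these changes was not tested. Read depth is unknown, which leaves no detection limit for low genes such as Erbb4 and Nrg3.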
